A study of Homo sapiens with 12 samples.

Results

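The genes described here encode clotting factors, their inhibitors, the fibrinolytic system and complement, taken as a list of 41 symbols in the annotation of the array platform. All 41 had at least 1 probe, and 31 passed the detection filter (4 or more of the 12 arrays with a detection p under 0.05), against 10891 of 20046 genes with a probe over the whole array. They were measured in Huh7, an established human hepatoma line that keeps much of the secretory programme of hepatocytes. The groups were cells given recombinant human erythroferrone (ERFE) at 10 µg/ml for 24 h, cells given recombinant mouse ERFE at the same dose and time, and untreated cells, with 4 arrays in each. ERFE, which maturing red cells secrete, binds bone morphogenetic proteins (BMPs) and thereby lowers hepcidin, the peptide that limits iron release. Cells given vehicle alone or an unrelated protein were not analysed here, and a difference between species cannot be told apart from one between protein preparations. The labels call the arrays replicates without saying whether they are separate cultures, and p-values therefore reflect array-to-array spread that may be technical.

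The liver makes most of the circulating proteins of both cascades. Clotting runs from a contact or tissue factor trigger through serine proteases to thrombin, which turns fibrinogen into fibrin that factor XIII then cross-links, while serpins and the protein C system restrain it and plasmin dissolves the clot. Complement is started by the classical, lectin or alternative route, converges on C3 and ends in the membrane attack complex, with soluble regulators that limit each step.

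Values are log2 signals after background correction and quantile normalization, and a change is a difference of such values with its standard error from limma. Values on single arrays are given in the order of replicates 1 to 4, and for mouse ERFE in the order 1, 2, 3-A4 and 3-B4, since a pair of mouse ERFE arrays carries the number 3. Of the hepatocyte markers that check the labelled cell type, 10 of 10 passed the filter, with a mean log2 signal of 13.3 to 13.5 on the 12 arrays. The arrays detected 34.5% to 39.1% of 47323 probes, and the number of arrays limits the precision. Since RNA was taken in bulk, fewer cells of a type and less RNA per cell cannot be told apart. The arrays differed in transcripts of antigen-presenting cells. Of 13 MHC class II genes listed, 12 had a probe and 8 passed, and their summed linear signal was 1062 to 2761 with human ERFE, 974 to 4553 with mouse ERFE and 837 to 5908 in untreated cells. CIITA and HLA-DRB1 were detected on 0 arrays. Of 8 leukocyte and macrophage genes 5 passed (LYZ, CD68, CD14, AIF1 and TYROBP), CSF1R was detected on 3 arrays, FCER1G on 2 and PTPRC on 0. Their summed linear signal was 13170 to 15480 with human ERFE, 12940 to 14390 with mouse ERFE and 12220 to 13710 in untreated cells. Their mean log2 signal was 8.631 to 9.001 with human ERFE, 8.564 to 9.133 with mouse ERFE and 8.525 to 9.416 in untreated cells. Untreated replicate 4 had the lowest mean (8.525), while the other untreated arrays, at 9.179 to 9.416, lay above every ERFE array. Untreated replicate 4 also had the lowest class II sum (837). Of the 5, 0 passed the adjusted test, and the changes were -1.03 and -1.25 for TYROBP and -0.30 and -0.31 for CD14 with the human and the mouse protein. Of the other sources of clotting proteins, the endothelial markers had 1 of 6 genes passing, PECAM1, which was detected on 12 arrays. Its changes were 0.05 with human and -0.32 with mouse ERFE, and did not pass. VWF, CDH5, KDR, TEK and ERG were detected on 0 arrays. The platelet markers had 2 of 6 passing, PPBP and GP1BA, each detected on 12 arrays, while PF4, GP9, ITGA2B and TUBB1 were detected on 0.

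The members with the largest changes over both proteins, at the settings used here, were CPB2, F13B and PROZ. F13B encodes the carrier subunit of factor XIII, CPB2 a carboxypeptidase that slows fibrinolysis, and PROZ protein Z, the cofactor of an inhibitor of factor Xa. Of these 3 genes only F13B passed the adjusted test, and only with the ERFE groups averaged. The 250 bases before the start of each of the 3 are given here. They come from RefSeq (GRCh38.p14), 5′ to 3′ on the gene's strand, at chr1:197067261-197067510 on the minus strand for F13B, chr13:46105034-46105283 on the minus strand for CPB2 and chr13:113158398-113158647 on the plus strand for PROZ. Capitals mark matches to 4 motifs searched on both strands, namely GTTAAT (a core HNF1 motif), CAAAGTCCA (an HNF4 site), TTGCNNCAA (a C/EBP site) and GGCGCC (the core of the BMP response element).
F13B: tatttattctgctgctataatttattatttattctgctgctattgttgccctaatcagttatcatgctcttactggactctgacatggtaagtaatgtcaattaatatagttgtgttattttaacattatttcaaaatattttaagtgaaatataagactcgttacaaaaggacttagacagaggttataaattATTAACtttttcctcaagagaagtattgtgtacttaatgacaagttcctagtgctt
CPB2: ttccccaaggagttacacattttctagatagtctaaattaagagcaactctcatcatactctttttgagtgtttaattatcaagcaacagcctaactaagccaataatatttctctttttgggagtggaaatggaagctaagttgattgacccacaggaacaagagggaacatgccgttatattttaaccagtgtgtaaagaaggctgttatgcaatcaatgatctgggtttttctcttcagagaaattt
PROZ: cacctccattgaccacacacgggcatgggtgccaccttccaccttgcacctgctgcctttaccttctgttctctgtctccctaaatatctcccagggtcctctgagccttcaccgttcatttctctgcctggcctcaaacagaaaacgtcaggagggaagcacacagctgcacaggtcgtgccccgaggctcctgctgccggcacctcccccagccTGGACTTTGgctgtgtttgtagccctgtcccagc
The window of F13B held 1 HNF1 motif and that of PROZ 1 HNF4 site, both on the opposite strand, and that of CPB2 held no match. RefSeq windows of 300 bases (250 before to 50 after the start) were matched for 34 of the 41 members, 43 windows in all. The HNF1 motif was found in 11 of these 43 windows (25.6%), those of 10 members, F13B, F2, PROC, PLG, C4BPA, C5, CFI, MBL2, C1R and KLKB1, and in 6.88% of all 35116 windows. The HNF4 site was found in 2 (F10 and PROZ, 4.65%) against 0.384% of all windows, and the C/EBP site in 0 against 1.98%. The BMP core was found in 3 (C2, MASP2 and PROS1, 6.98%) against 19.2% of all windows. A match is a description of these letters and shows no binding.

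Over the members as a whole, changes were small. With human ERFE the median change of the 31 members was 0.11 (29 of 31 above 0), against 0.0053 for all genes (51.6% above 0). Where arrays were centred on their medians in place of quantile normalization these medians were 0.19 and 0.08, with 71.6% of all genes above 0. With mouse ERFE the median was 0.03 (19 of 31 above 0), against -0.0035 for all genes (49.2% above 0). With median centring these medians were -0.03 (15 of 31 above 0) and -0.06, with 33.1% of all genes above 0, so the members still lay 0.03 above all genes. Leaving out 1 array moved the median with mouse ERFE to between 0.02 (without 3-A4) and 0.08 (without untreated replicate 1), with 18 to 23 members above 0. Both comparisons use the same untreated arrays. With the ERFE groups averaged the median was 0.09 (24 of 31 above 0), against -0.0001 for all genes. Every one of the 31 members had a 95% confidence interval inside a change of 2-fold in each comparison, and 26 of 31 inside 1.5-fold with either protein. The members' spread within groups (pooled SD) was 0.07 to 0.37 with a median of 0.16, close to the median of 0.17 over all genes.

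In the test across all genes (limma, Benjamini-Hochberg adjusted p under 0.05), 0 of 31 members passed with human ERFE, where 0.248% of all genes did, and 0 of 31 with mouse ERFE, where 0.22% did. With the ERFE groups averaged 1 of 31 passed, F13B, against 0.459% of all genes. At an unadjusted p under 0.05 the human protein gave 4 members (C4BPA, CPB2, F13B and PROZ, all higher) where 6.98% of all genes passed. The mouse protein gave 2 (CPB2 and F13B, both higher) where 11.5% did, so the members' share of 6.45% lay below that of all genes. The average of both gave 4 (C4BPB, CPB2, F13B and PROZ, all higher) where 10.5% did. Arrays of the ERFE group lay wholly apart from the untreated ones for 2 members with human ERFE (C4BPA and F13B, background 3.99%), 1 with mouse ERFE (F13B, background 6.94%) and 1 over both (F13B, background 1.62%).

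**Figure D1:**
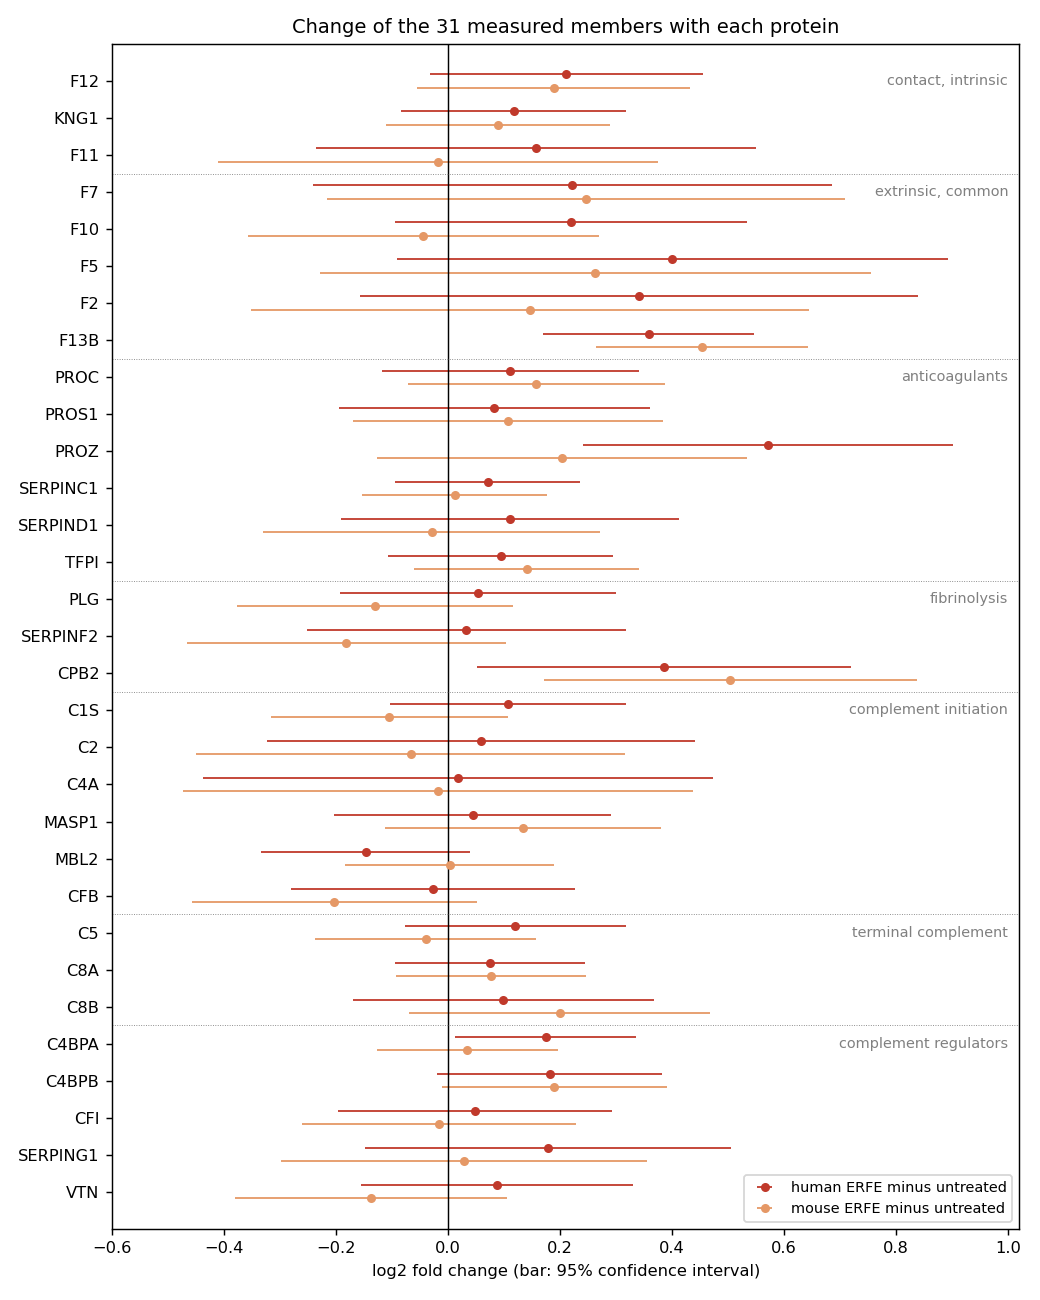
Log2 fold change of the 31 measured members with human ERFE (dark) and mouse ERFE (light) against untreated cells, grouped by role; points are limma estimates and bars 95% confidence intervals. The intervals of F13B and CPB2 lie above 0 with both proteins, those of PROZ and C4BPA with the human protein, and all others cross 0.

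Among genes of the extrinsic and common pathway, F13B was higher with both proteins. Its log2 signal (probe ILMN_1735489) was 7.57, 7.31, 7.41 and 7.41 with human ERFE, 7.64, 7.43, 7.52 and 7.48 with mouse ERFE, and 7.03, 6.92, 7.20 and 7.11 in untreated cells. All 8 ERFE arrays lay above all 4 untreated arrays. With the ERFE groups averaged F13B rose by 0.41 ± 0.08 (SE; 95% interval 0.24 to 0.57; limma adjusted p = 0.0375), or 1.32-fold. Separately, the change was 0.36 ± 0.09 with human ERFE (adjusted p = 0.227) and 0.45 ± 0.09 with mouse ERFE (adjusted p = 0.0605). The averaged call was lost when any 1 of 10 arrays was left out (adjusted p 0.0521 to 0.176, change 0.36 to 0.45) and held without human ERFE replicate 2 (adjusted p = 0.0483) or untreated replicate 4 (adjusted p = 0.0427). It was also lost under 10 of 14 other settings of the processing and model, where the change was 0.21 to 0.44.

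For F5 and F2 the spread within groups was wide. F5, the cofactor of factor Xa, had a log2 signal of 6.36, 7.21, 7.46 and 7.15 with human ERFE, 6.94, 6.63, 6.98 and 7.08 with mouse ERFE, and 6.72, 6.20, 6.57 and 7.10 in untreated cells. The groups overlapped, and the changes of 0.40 ± 0.23 with human and 0.26 ± 0.23 with mouse ERFE did not pass. F2, prothrombin, varied most of all members within groups (pooled SD 0.37) and is singled out here for that, after its values were seen. Its log2 signal was 8.40, 7.92, 8.64 and 7.71 with human ERFE, 8.54, 7.90, 7.65 and 7.79 with mouse ERFE, and 8.04, 8.06, 7.69 and 7.51 in untreated cells. High and low arrays occurred in each group, and the changes were 0.34 ± 0.23 and 0.15 ± 0.23 with the human and the mouse protein.

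F10, factor X, had a log2 signal of 8.23, 8.72, 8.47 and 8.47 with human ERFE, 8.0, 7.91, 8.44 and 8.49 with mouse ERFE, and 8.22, 8.45, 8.16 and 8.18 in untreated cells. The mouse ERFE arrays split into a low pair (replicates 1 and 2) and a high pair (3-A4 and 3-B4), and neither protein gave a change that passed (0.22 ± 0.14 and -0.04 ± 0.14 for human and mouse). F7, the protease that binds tissue factor, was near the detection limit on each of its 3 probes. The probe used was detected on 2 arrays with human ERFE, 2 with mouse ERFE and 0 in untreated cells, and the others on 2, 1 and 1 and on 2, 2 and 1 in the same order. Its changes were 0.22 ± 0.21 with human and 0.25 ± 0.21 with mouse ERFE, and did not pass (limma adjusted p = 0.899 and 0.738).

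The contact and intrinsic genes measured were F12, KNG1 and F11. F12, which starts the contact pathway, had a log2 signal of 9.09, 9.23, 9.41 and 9.51 with human ERFE, 9.33, 9.03, 9.44 and 9.35 with mouse ERFE, and 9.12, 9.20, 8.99 and 9.09 in untreated cells. Of the ERFE arrays 6 of 8 lay above every untreated one, and the others lay within the untreated range. The change of F12 was 0.21 ± 0.11 with human and 0.19 ± 0.11 with mouse ERFE, and did not pass (adjusted p = 0.77 and 0.585). KNG1, the kininogen precursor, averaged 10.63 ± 0.17 with human ERFE, 10.60 ± 0.11 with mouse ERFE and 10.51 ± 0.05 in untreated cells (SD, n = 4 each). F11 was detected on 4, 2 and 3 arrays with human ERFE, with mouse ERFE and without ERFE, and its changes of 0.16 and -0.02 did not pass. F9 and KLKB1, which encode factor IX and prekallikrein, were detected on 0 arrays.

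Of the 7 anticoagulant genes 6 were measured, and PROZ was the one with a change at an unadjusted p under 0.05. Its log2 signal (probe ILMN_1664565) was 6.26, 6.44, 5.99 and 6.39 with human ERFE, 5.72, 5.88, 5.70 and 6.29 with mouse ERFE, and 6.03, 5.60, 5.58 and 5.58 in untreated cells. Of the human ERFE arrays 3 lay above every untreated array and 1 did not, while the mouse ERFE arrays overlapped both other groups. The change was 0.57 ± 0.15 with human ERFE (adjusted p = 0.301) and 0.20 ± 0.15 with mouse ERFE (adjusted p = 0.683), so it passed in neither. Without background correction the values were 0.18 and 0.06, below those of CPB2 and F13B at that setting. Leaving out 1 array moved the value with mouse ERFE to between 0.07 (without 3-B4) and 0.31 (without untreated replicate 1). PROZ lies beside F10 and F7 on chromosome 13 in RefSeq. F10 and F7 had changes of 0.22 each with human ERFE and of -0.04 and 0.25 with mouse ERFE, none of which passed. F7 was near the detection limit, with its probe used detected on 0 untreated arrays. A shared change of these neighbours was not tested.

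TFPI, which blocks the tissue factor complex, and PROS1, the cofactor of activated protein C, had no change that passed. TFPI had a log2 signal of 12.23, 12.09, 11.91 and 12.16 with human ERFE, 12.06, 12.02, 12.14 and 12.35 with mouse ERFE, and 11.99, 11.96, 12.01 and 12.06 in untreated cells. Its 3 probes gave changes of 0.04 to 0.09 with human and 0.13 to 0.14 with mouse ERFE. PROS1 had 11.60, 11.72, 12.07 and 11.77 with human ERFE, 12.02, 11.93, 11.77 and 11.54 with mouse ERFE, and 11.90, 11.67, 11.72 and 11.55 in untreated cells. Arrays overlapped between all groups for both genes. SERPINC1, antithrombin, was among the steadiest members, at 11.14 ± 0.06 with human ERFE, 11.08 ± 0.07 with mouse ERFE and 11.07 ± 0.10 in untreated cells (SD, n = 4 each). PROC and SERPIND1, protein C and heparin cofactor II, had changes of 0.11 each with human ERFE and of 0.16 and -0.03 with mouse ERFE, none of which passed. TFPI2 was detected on 1 array at most.

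**Figure D2:**
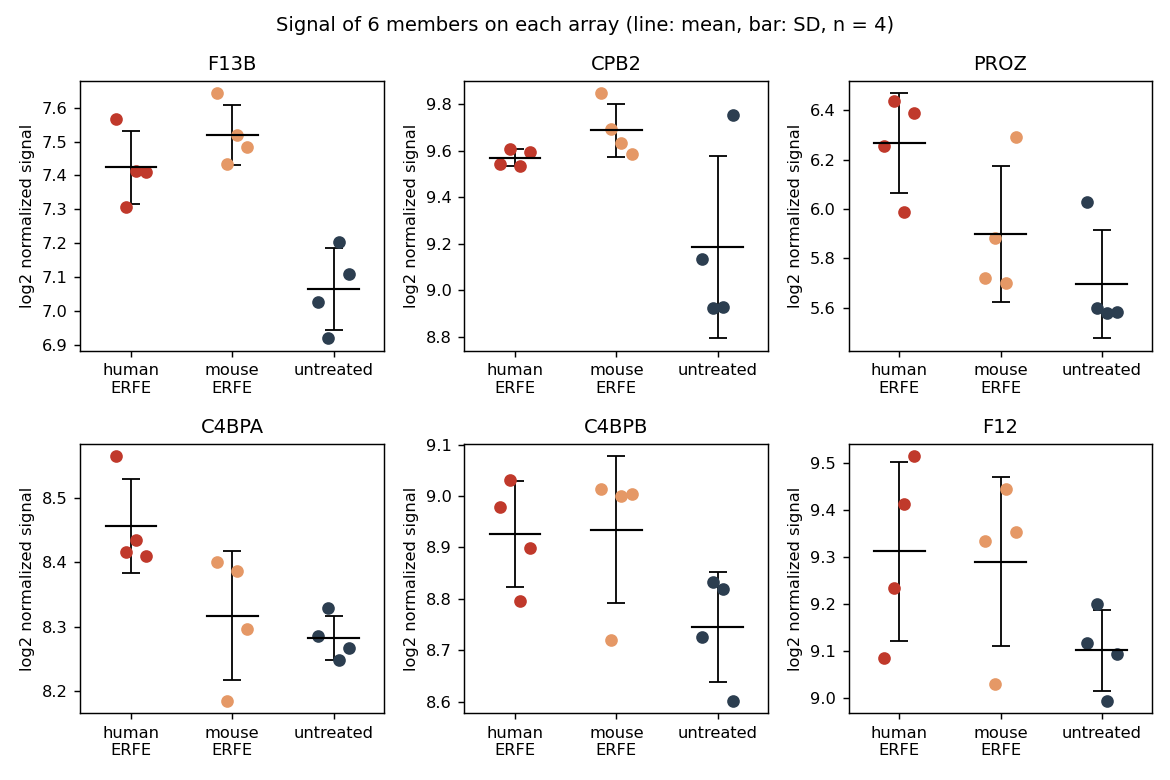
Log2 normalized signal of F13B, CPB2, PROZ, C4BPA, C4BPB and F12 on each array with human ERFE, with mouse ERFE and in untreated cells; the line is the mean and the bar the SD of 4 arrays. F13B is the gene whose 8 ERFE arrays all lie above the 4 untreated ones, and for CPB2 a single untreated array at 9.75 lies among the ERFE arrays.

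Among the genes of fibrinolysis, CPB2 had an interval above 0 with both proteins. Its log2 signal (probe ILMN_1789003) was 9.54, 9.61, 9.54 and 9.59 with human ERFE, 9.85, 9.69, 9.63 and 9.58 with mouse ERFE, and 9.13, 8.92, 8.93 and 9.75 in untreated cells. The 8 ERFE arrays lay close together and above 3 of the untreated arrays, while untreated replicate 4 lay at the level of the ERFE arrays. The change was 0.39 ± 0.15 with human ERFE (adjusted p = 0.621) and 0.50 ± 0.15 with mouse ERFE (adjusted p = 0.222), and 0.44 ± 0.13 over both (adjusted p = 0.223). Without untreated replicate 4 it was 0.58 with human ERFE (adjusted p = 0.0196), 0.69 with mouse ERFE (adjusted p = 0.0054) and 0.63 over both (adjusted p = 0.00346), so that 1 array decided the call. PLG, plasminogen, and SERPINF2, the plasmin inhibitor, had changes of 0.05 and 0.03 with human ERFE and of -0.13 and -0.18 with mouse ERFE, none of which passed. HRG was detected on 1 array at most.

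Untreated replicate 4 also differed from the other untreated arrays in MHC class II genes. The mean log2 signal of the 8 genes was 7.90, 6.56, 7.70 and 6.58 with human ERFE, 8.54, 6.73, 6.34 and 6.43 with mouse ERFE, and 8.52, 8.81, 8.15 and 5.99 in untreated cells. Of the untreated arrays, replicate 4 had the lowest class II signal and the highest CPB2 level (9.75, against 8.92 to 9.13 on the others). On the ERFE arrays CPB2 was 9.54 to 9.85, with 9.85 on mouse ERFE replicate 1, which had the highest class II signal of these arrays. The cause of the CPB2 difference was not tested. With the mean class II signal as a covariate, the change over both proteins was 0.35 for CPB2 (limma adjusted p = 0.441) and 0.42 for F13B (adjusted p = 0.0794). Without the covariate these changes were 0.44 and 0.41. Of the 8 class II genes 0 passed the limma test against untreated cells, adjusted or unadjusted, and their median change was -0.60 with human and -0.59 with mouse ERFE. The interferon-stimulated genes, of which 17 of 23 passed the filter, had a median change of -0.33 with human and -0.44 with mouse ERFE, and 0 passed the test. At an unadjusted p under 0.05 there were 0 of 17 with human ERFE, where 6.98% of all genes passed, and 3 of 17 with mouse ERFE, where 11.5% did.

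**Figure D3:**
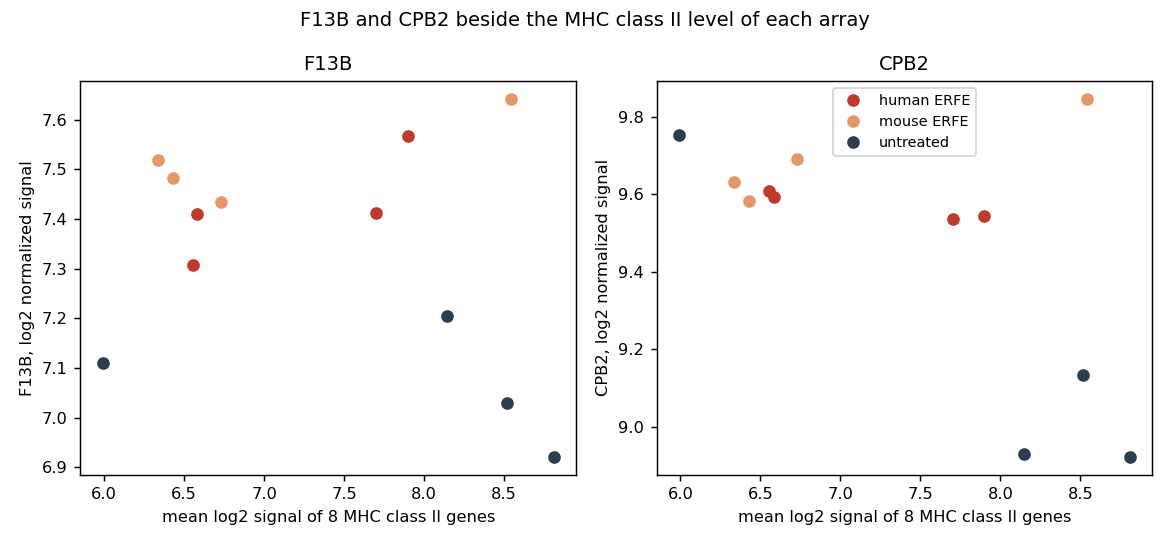
Log2 signal of F13B (left) and CPB2 (right) against the mean log2 signal of 8 MHC class II genes on each array, coloured by group. Of the untreated arrays 3 lie at 8.15 or more on the class II axis and 1 at 5.99, and this array has the CPB2 level of the ERFE arrays but an F13B level within the range of the other untreated arrays.

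Of the 9 genes that start complement or form the C3 convertase, 6 were measured, and 0 passed in either comparison with untreated cells. C1S, a protease of the C1 complex, had a log2 signal of 7.59, 7.83, 7.84 and 7.48 with human ERFE, 7.35, 7.59, 7.47 and 7.5 with mouse ERFE, and 7.63, 7.5, 7.51 and 7.67 in untreated cells. CFB, the protease of the alternative pathway, had 8.35, 8.37, 8.36 and 8.21 with human ERFE, 7.92, 8.17, 8.26 and 8.25 with mouse ERFE, and 8.21, 8.69, 8.21 and 8.30 in untreated cells. Arrays overlapped between the ERFE and untreated groups for both. The changes of CFB were -0.03 ± 0.12 with human and -0.20 ± 0.12 with mouse ERFE.

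MASP1, a protease of the lectin pathway, was read by 4 probes that passed. The probe of highest mean had a log2 signal of 9.22, 9.41, 9.73 and 9.50 with human ERFE, 9.55, 9.63, 9.43 and 9.61 with mouse ERFE, and 9.64, 9.27, 9.36 and 9.40 in untreated cells. Its changes were 0.04 and 0.13 with the human and the mouse protein, while another probe gave -0.05 and -0.25 (mouse ERFE, limma unadjusted p = 0.0338, adjusted p = 0.374), so the probes disagreed in sign. MBL2, the mannose-binding lectin, averaged 7.90 ± 0.03 with human ERFE, 8.05 ± 0.11 with mouse ERFE and 8.04 ± 0.14 in untreated cells (SD, n = 4 each). C2, a component of the C3 convertase, had changes of 0.06 and -0.07. C4A was detected on 2, 1 and 1 arrays with human ERFE, with mouse ERFE and without ERFE. Its probe may also read the near-identical C4B, whose own probe was detected on 0 arrays. C1R, MASP2 and C3 were detected on 3, 2 and 1 arrays at most with any of their probes.

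The terminal genes measured were C5, C8A and C8B, subunits of the membrane attack complex or the precursor of its first one. C5 had a log2 signal of 11.23, 11.50, 11.67 and 11.40 with human ERFE, 11.34, 11.19, 11.36 and 11.27 with mouse ERFE, and 11.34, 11.31, 11.33 and 11.34 in untreated cells. C8B had 5.84, 5.86, 5.87 and 5.75 with human ERFE, 6.08, 6.07, 5.84 and 5.73 with mouse ERFE, and 5.72, 5.38, 5.86 and 5.97 in untreated cells. The untreated arrays lay inside the ERFE range for C5 and overlapped it for C8B. The changes were 0.12 ± 0.09 and -0.04 ± 0.09 for C5 and 0.10 ± 0.12 and 0.20 ± 0.12 for C8B, and C8A had 0.08 ± 0.08 with either protein. C6, C8G and C9 were detected on 1 array at most.

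All 5 complement regulators were measured. C4BPA and C4BPB encode the chains of C4b-binding protein, which limits the classical convertase, and lie next to each other in RefSeq. C4BPA had a log2 signal of 8.57, 8.42, 8.43 and 8.41 with human ERFE, 8.40, 8.18, 8.39 and 8.30 with mouse ERFE, and 8.29, 8.33, 8.25 and 8.27 in untreated cells. The human ERFE arrays lay above all untreated ones, where 3.99% of all genes had arrays without overlap. The lowest human ERFE array (8.409) and the highest mouse ERFE array (8.401) nearly met, and the mouse ERFE arrays overlapped the untreated ones. The change was 0.17 ± 0.07 with human ERFE (limma unadjusted p = 0.0363, adjusted p = 0.652) and 0.03 ± 0.07 with mouse ERFE (adjusted p = 0.925).

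C4BPB had a log2 signal of 8.98, 9.03, 8.80 and 8.90 with human ERFE, 9.01, 8.72, 9.0 and 9.0 with mouse ERFE, and 8.73, 8.83, 8.82 and 8.60 in untreated cells. Of the ERFE arrays 6 of 8 lay above every untreated array. The changes were 0.18 ± 0.09 and 0.19 ± 0.09 with the human and the mouse protein, and a second probe gave 0.19 and 0.32, none of which passed. VTN, vitronectin, which blocks the membrane attack complex, had 11.54, 11.73, 11.74 and 11.58 with human ERFE, 11.36, 11.12, 11.57 and 11.65 with mouse ERFE, and 11.55, 11.66, 11.62 and 11.43 in untreated cells, with overlap between all groups. CFI, the protease that cleaves C3b and C4b, and SERPING1, the C1 inhibitor, had changes of 0.05 and 0.18 with human ERFE and of -0.02 and 0.03 with mouse ERFE.

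The proteins of the 2 species were then set against each other. Of the 31 members 0 passed in human ERFE minus mouse ERFE, where 0.00918% of all genes did. The median difference was 0.06 (20 of 31 above 0), against 0.01 for all genes (54.1% above 0). It was 0.03 without mouse ERFE replicate 2 and 0.12 without human ERFE replicate 1, the ends of the range with 1 array left out. Where arrays were centred on their medians, all genes shifted to a median of 0.15, and the members lay 0.07 above it. At an unadjusted p under 0.05 there were 2 members, PROZ and C1S, both higher with human ERFE, where 4.92% of all genes passed. The differences were 0.37 ± 0.15 for PROZ (95% interval 0.04 to 0.70; limma unadjusted p = 0.0316, adjusted p = 0.953) and 0.21 ± 0.10 for C1S (0.00 to 0.42; limma unadjusted p = 0.049, adjusted p = 0.999). F13B and CPB2 differed by -0.10 ± 0.09 (-0.28 to 0.09) and -0.12 ± 0.15 (-0.45 to 0.21), intervals that allow a difference in either direction. For 28 of 31 members the interval lay within a difference of 1.5-fold.

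**Figure D4:**
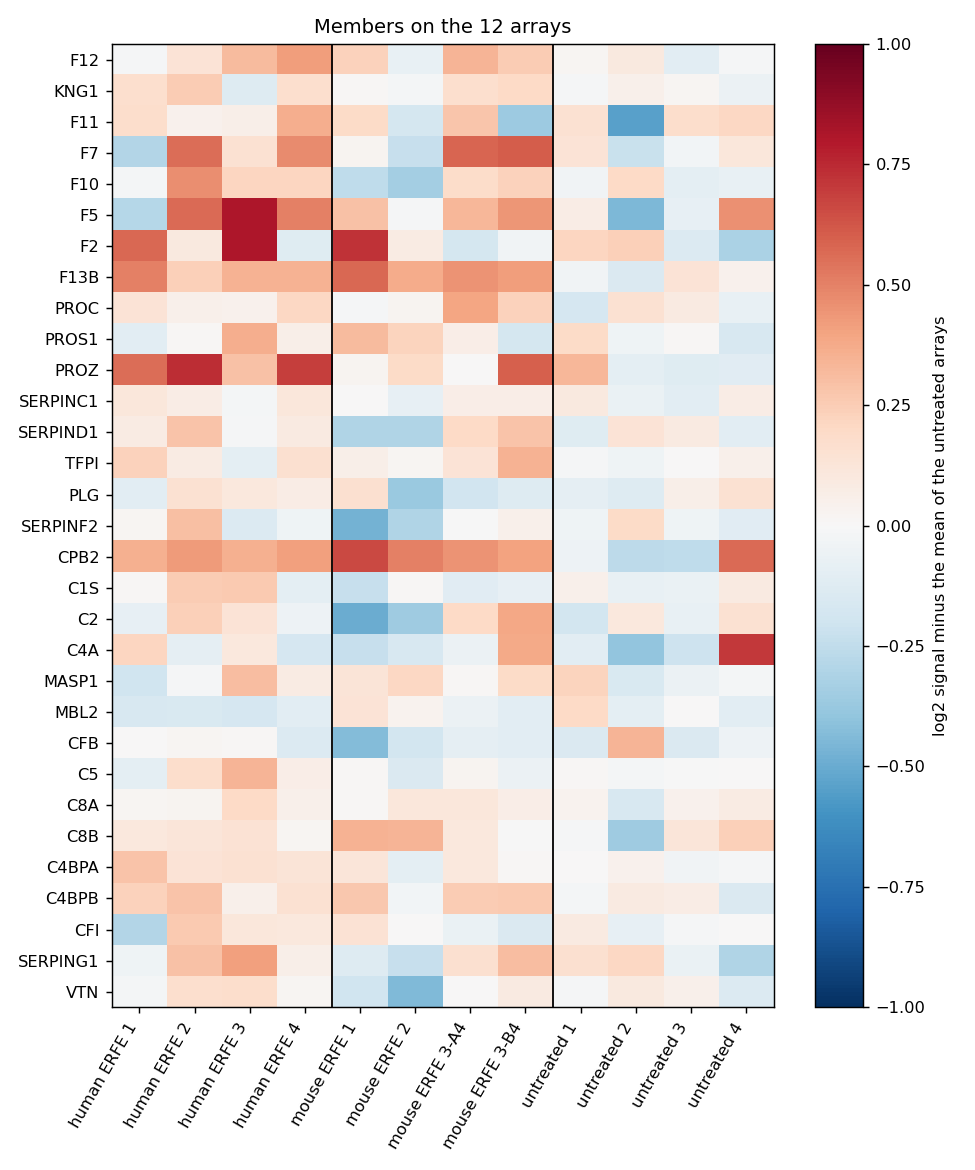
Log2 signal of the 31 measured members on the 12 arrays, each minus that gene's mean over the untreated arrays; red is above and blue below that mean, and rows follow the roles in the text. F13B is red on all 8 ERFE arrays and faintly so on untreated replicates 3 and 4 (0.14 and 0.04 above the untreated mean). CPB2 is red on the 8 ERFE arrays and on untreated replicate 4, while mouse ERFE replicates 1 and 2 are blue for SERPIND1, SERPINF2, F10 and VTN.

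Within groups, some members varied together over the arrays. Over the 465 pairs of members the correlation of deviations from the group means had a median of 0.09 and ran from -0.88 to 0.91 (12 arrays, which share labelling and normalization). The highest were 0.91 for SERPIND1 with SERPINF2, 0.87 for SERPING1 with VTN, 0.86 for F10 with SERPIND1 and 0.85 for F10 with VTN, and the lowest was -0.88 for PROS1 with TFPI. SERPINF2, singled out here after these correlations were seen, had a log2 signal of 10.45, 10.74, 10.30 and 10.39 with human ERFE, 9.97, 10.14, 10.43 and 10.49 with mouse ERFE, and 10.40, 10.63, 10.40 and 10.33 in untreated cells. Mouse ERFE replicates 1 and 2 were its lowest arrays, and the same 2 arrays were the lowest for SERPIND1, F10 and VTN. Across all 12 arrays the genes whose signal was most like that of F13B were ZFP90, TCIM and OVGP1 (Pearson r = 0.89 each), a description that includes the group difference. For CPB2 the closest were PLEKHA3, ZNF286A and PPIA (r = 0.97, 0.94 and 0.94), and for PROZ they were GPN3, PCDHB17P and HDX (r = 0.87, 0.84 and 0.84).

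Other genes of the cascades were read from a list of 51, of which 44 had a probe and 27 passed the filter. In each comparison 0 of the 27 passed the test, and their median change was 0.02 with human and -0.0048 with mouse ERFE. At an unadjusted p under 0.05 there were 0 of 27 with human ERFE, where 6.98% of all genes passed, and 2 of 27 with mouse ERFE, where 11.5% did, so this count is no more than the background. The 2 were FGA, the fibrinogen alpha chain (0.24, limma unadjusted p = 0.0314), and C1QA, a chain of C1q that macrophages make (-0.49, limma unadjusted p = 0.0474). The other C1q chains had values in the same direction, -0.86 and -0.75 for C1QB and -0.73 and -0.60 for C1QC with the human and the mouse protein, and did not pass. C1QA, C1QB and C1QC were detected on 7, 5 and 4 of the 12 arrays at most, so these values lie near the detection limit. The remaining fibrinogen chains, FGB and FGG, had changes of -0.04 and 0.06 with human ERFE. The acute phase genes, another set of secreted liver proteins (9 of 14 measured), had median changes of 0.08 with human and 0.0027 with mouse ERFE, and 0 passed the adjusted test. With either protein 1 of the 9 was higher and 1 lower at an unadjusted p under 0.05, where 6.98% of all genes passed with human and 11.5% with mouse ERFE. Both genes are named here after their values were seen. These were SERPINA3, a protease inhibitor (0.35 and 0.37, adjusted p = 0.297 and 0.121), and SAA4, a serum amyloid A protein (-0.35 and -0.38, adjusted p = 0.45 and 0.205).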

How the data were processed

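Signal of 47323 probes was measured on 12 Illumina HT-12 v4 arrays, with groups taken from the titles. The deposited values are linear intensity readings, per the file headers, beside deposited detection p-values that compare each probe with negative controls. Both lumi and limma stand in the submitters' processing notes, but how background was handled is not given in the sources used here. Another table, described as normalized, held the same 567876 values. Of the probes 30113 had 1 symbol, 8 several and 17202 none, and 30074 matched RefSeq by Entrez ID (0 symbols updated).

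Background correction and quantile normalization used neqc (offset 16, negative controls inferred from detection p) in limma 3.58.1, with statmod 1.5.0 under R 4.3.3. Of the 14152 passing probes with 1 symbol, a gene took that of highest mean, which gave 10891 genes. The 12 arrays entered one 3-group model (lmFit, eBayes; two-sided tests) with Benjamini-Hochberg adjustment over all genes, and tested on simulated data. The mean of both ERFE groups minus untreated weights the groups equally. The members and lists were chosen with earlier results of these data known. Values on each array are given for members that passed, for the 6 with the smallest p in any comparison, for the 3 brightest and for those whose probes disagree in sign. F2 and SERPINF2 are also given, chosen after their values were seen. The number of arrays limits the precision. The alternatives changed the normalization, offset, filter, probe rule or model, or left out 1 array.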

Additional observations from a re-analysis of the deposited data

Results flagged for a closer look

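In 5 of 93 groups of 4 arrays that were looked at (31 members in 3 groups), 1 array stood apart by Dixon's ratio, the gap to the nearest array over the whole range, past its 95% critical value. Chance flags about 1 in 20 groups. C4BPB was low on mouse ERFE replicate 2 (ratio 0.956), at 8.72 against 9.0 to 9.01 on the other arrays. PROZ was high on untreated replicate 1 (ratio 0.954), at 6.03 against 5.58 to 5.60, and this is the untreated array that overlaps the human ERFE arrays. F11 was low on untreated replicate 2 (ratio 0.926), at 5.04 against 5.74 to 5.79. CFB was low on human ERFE replicate 4 (ratio 0.879), at 8.21 against 8.35 to 8.37. C4BPA was high on human ERFE replicate 1 (ratio 0.834), at 8.57 against 8.41 to 8.43.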

How the results depend on the processing

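The call of F13B over both proteins was lost, leaving 0 members, without background correction, with median centring, with no filter, with all probes, with a trended robust fit, with the mouse ERFE arrays of replicate 3 averaged, with the title number or title letter as a block, and with MHC class II as a covariate (adjusted p 0.0533 to 0.579 from limma). It held with array weights, with the offset 50, with the mean of probes and with probes detected on all arrays. Leaving out 1 array gave 0 to 1 called members with human ERFE, 0 to 2 with mouse ERFE and 0 to 2 over both (2 without untreated replicate 4). With mouse ERFE 1 member, F13B, passed with array weights and with probes detected on all arrays (adjusted p = 0.0475 and 0.0371). With the replicate number as a block, 0 members were called over both (F13B 0.40, limma adjusted p = 0.0638). The 10 same-number pairs had correlations of -0.39 to 0.31, 2 of them over 0.1. With so few arrays these cannot show whether arrays of the same number were handled together. The median difference between the proteins was 0.22 with median centring and 0.16 with the title number as a block. Over these settings the genes called among all genes ran from 5 to 34 with human ERFE (27 as reported), 0 to 77 with mouse ERFE (24), 7 to 88 over both (50) and 0 to 1 between the proteins (1), and with 1 array left out from 11 to 52, 8 to 156, 21 to 133 and 1 to 1. Single members were followed under the alternatives only where the rules for giving values on each array picked them, so not every measured member is covered. Of 1700 such values, 1674 kept their side of the threshold, 20 lost the call (all F13B over both), 6 gained one, and 0 called values turned sign. Among values that did not pass, 61 had the other sign than as reported (19 of 64 combinations of member and comparison). The fit to the compared groups alone gives no value over both. The causes were not tested.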
